A study of Mus musculus with 2 samples.

Results

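The genes described are 9 keratins and claudins of lung epithelium: the keratins Krt7, Krt8, Krt18, Krt19 and Krt15 and the claudins Cldn3, Cldn4, Cldn7 and Cldn18. They were taken by gene symbol from the count matrices, and all 9 were found among the 32285 genes measured. The study sequenced single cells of whole lung from C57BL/6 mice that carry the SP-CI73T mutation. SP-C is surfactant protein C, which alveolar type 2 (AT2) cells make from Sftpc. There were 2 libraries. The injured library (genotype SP-CI73T) belongs to a design that samples lung 14 days after injury, and the control library (the same genotype) to lung at steady state. Both are mutant, so neither is wild-type lung. In this line a single oral gavage of tamoxifen (175 mg/kg, in corn oil) cuts out a neomycin cassette and raises mutant protein expression, and corn oil alone is also named. The groups come from the titles. The treatment tags run the other way, untreated for the library titled injured and tamoxifen treated for the library titled control, so every direction below rests on the titles. The airways were lavaged before digestion with collagenase, and the number of animals, their age and their sex are not given in the sources used here.

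Keratins build the intermediate filaments of epithelial cells from pairs of a type II chain (Krt7, Krt8) and a type I chain (Krt18, Krt19, Krt15). Krt8 and Krt18 are the pair of simple epithelia, Krt7 and Krt19 are found with them in lung and mesothelium, and Krt15 is best known from basal cells of stratified and airway epithelium. Claudins are 4-pass membrane proteins of tight junctions that set how ions and water pass between cells. Cldn18 is the typical claudin of alveolar epithelium, Cldn4 is a sealing claudin known to be induced in injured mouse lung, and Cldn3 and Cldn7 are widespread in lung epithelium. A Krt8-high transitional state between AT2 and alveolar type 1 (AT1) cells is known from injured mouse lung.

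All 9 are protein-coding genes, and several are neighbours (GRCm38). The type II keratins lie on chromosome 15, Krt7 (ENSMUSG00000023039) at chr15:101411043-101430313 and Krt8 (ENSMUSG00000049382) at chr15:101996698-102004482, and the type I chain Krt18 (ENSMUSG00000023043) at chr15:102028180-102032027 lies beside Krt8, 23697 bp away. The other type I chains are on chromosome 11, Krt19 (ENSMUSG00000020911) at chr11:100140810-100148665 and Krt15 (ENSMUSG00000054146) at chr11:100131758-100135928, with 4881 bp between them. Cldn7 (ENSMUSG00000018569) at chr11:69964779-69967885 is on the same chromosome, Cldn18 (ENSMUSG00000032473) at chr9:99689461-99717267 is alone on chromosome 9, and Cldn3 (ENSMUSG00000070473) at chr5:134986214-134987472 and Cldn4 (ENSMUSG00000047501) at chr5:134945119-134946934 lie 39279 bp apart.

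After filtering there were 2302 cells with a median of 3287 UMIs (unique molecular identifiers, here simply counts) in the injured library, and 2298 cells with a median of 4487 in the control library. Cells were clustered without any of the 85 keratin and claudin genes, and clusters were named from marker lists that hold none of the 9 genes (the macrophage list holds another keratin, Krt79). The AT1-like class held 82 injured and 20 control cells, the AT2-like class 18 and 63, the secretory-like class 79 and 116, the ciliated-like class 18 and 15, and the mesothelial-like class 20 and 8. Levels are CPM, a gene's summed counts in a class over all counts of that class, on the usual CPM scale, with exact 95% Poisson intervals. Ratios have exact 95% conditional intervals. Both cover counting error only. With 1 library per group there is no test between groups, and a gene is called higher or lower by size alone, when CPM differ by at least 1.5-fold and the 2 libraries hold at least 10 counts. Free RNA, read from B cell-like and T cell-like cells, stood between 0 and 6.69 CPM for every one of the 9 genes.

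The AT1-like label needs care. The class passed 14 of its 15 AT1 markers, and 8 of the 15 AT2 markers passed as well. Its leading genes were Ager, Gprc5a and Aqp5 beside Cldn18, Cldn4 and Krt7, which were not used to form or name it. Summed AT1 markers stood at 14442 CPM in injured and 33028 CPM in control AT1-like cells, and summed AT2 markers at 10363 CPM in injured and 1346 CPM in control cells. Summed secretory markers stood at 345 CPM in injured and 2871 CPM in control AT1-like cells, and summed ciliated markers, all 48 control counts from a single gene, at 36.9 CPM in injured and 779 CPM in control cells. Depth also differed: the median cell had 13677.5 UMIs in the injured and 994.5 UMIs in the control library, and a single control cell with 25723 UMIs made up 41.7% of the control sum. The part of depth and of AT2, secretory and ciliated marker RNA in the values below was not tested, and the main values are therefore also given without the deepest cell of each library.

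In the whole libraries, 7 of the 9 genes were higher and 2 were lower in the injured library, against 21.7% of all genes tested called higher and 17.3% called lower (39.1% either way). Krt8 stood at 195 CPM in the injured library, against 19.1 CPM in the control library (10.2-fold, 9.07 to 11.5). Krt7, at 125 CPM in the injured library against 14.5 CPM, was 8.61-fold and Krt18 4.87-fold higher. The counting intervals of these ratios all lay well above 1.5. Among the claudins, Cldn4 had 846 counts in the injured library against 8 counts in the control library (84.6-fold), Cldn18 was 7.77-fold, Cldn3 5.40-fold and Cldn7 4.29-fold higher. Krt19 ran the other way, at 131 CPM in the injured library against 300 CPM in the control library (2.29-fold lower, 2.19 to 2.41). Krt15 had 1 count in the injured library against 90 counts in the control library. The Cldn18 call was lost when each cell was weighted the same, and those of Cldn7 and Krt15 with 50 CPM added to both sides. AT1-like cells held 6.37% of all counts of the injured and 0.385% of those of the control library, so in these sums more epithelial cells, deeper cells and more RNA of a gene per cell cannot be told apart.

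**Figure D1:**
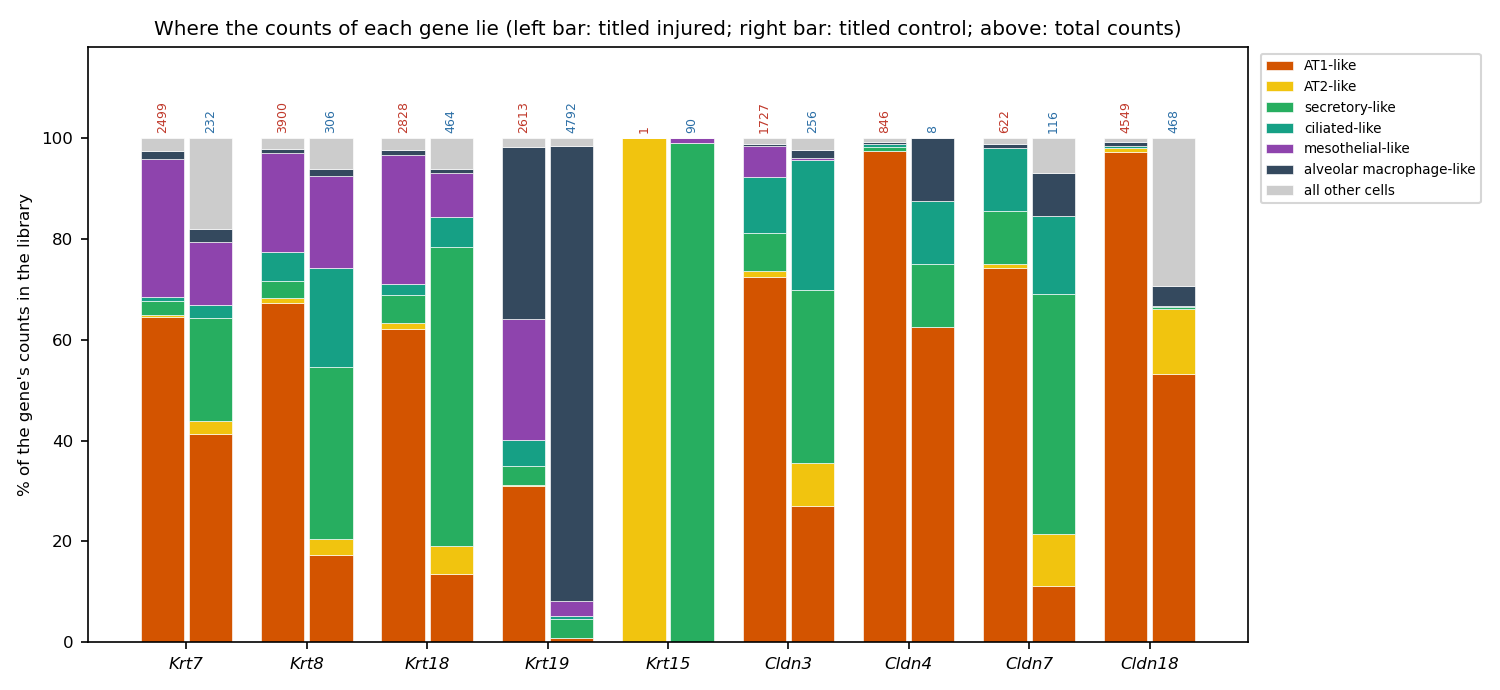
Share of each gene's counts (percent, y axis) that lies in each cell class, with the injured library on the left and the control library on the right of each pair, and total counts above the bars. AT1-like cells hold 67.4% of Krt8 counts in the injured library against 17.3% in the control library, and alveolar macrophage-like cells hold 33.9% of Krt19 counts in the injured library against 90.2% in the control library.

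The cells that carry each gene differed between the libraries. Of all Krt8 counts, AT1-like cells held 67.4% in the injured library against 17.3% in the control library, where secretory-like cells held 34.0%. Krt18 was divided in a like way, with 62.1% in injured AT1-like cells against 13.6% in those of the control library, where 59.3% lay in secretory-like cells. Cldn18 was found mainly in AT1-like cells, with 97.3% in AT1-like cells of the injured and 53.2% in those of the control library. Cldn4 had 97.4% of its counts in AT1-like cells of the injured library and 5 of its 8 counts there in the control library. Cldn7 lay at 74.1% in injured and 11.2% in control AT1-like cells. Krt19 lay partly outside epithelium: 31.0% of its counts were in AT1-like and 33.9% in alveolar macrophage-like cells of the injured library, against 0.876% and 90.2% in the control library.

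Levels by class gave each gene an order that was partly shared between libraries. Krt7 was highest in AT1-like cells (1264 CPM injured, 1557 CPM control), then in mesothelial-like cells (871 CPM injured, 313 CPM control), and the intervals of AT2-like, ciliated-like and secretory-like cells overlapped their neighbours in both libraries. Krt8 was highest in AT1-like cells of the injured library (2062 CPM), ahead of ciliated-like cells (1419 CPM), while in the control library ciliated-like (962 CPM) and AT1-like cells (860 CPM) overlapped. Krt18 was highest in AT1-like cells of both libraries, and mesothelial-like and AT2-like cells came next without separating from each other in the injured library. Krt19 was highest in ciliated-like (822 CPM) and mesothelial-like cells (804 CPM) of the injured library, which overlapped, and in mesothelial-like cells of the control library (1513 CPM). For Cldn3, ciliated-like cells (1201 CPM injured, 1058 CPM control) and AT1-like cells (983 CPM injured, 1119 CPM control) overlapped in both libraries. Cldn7 had the same top pair, at 479 and 362 CPM in the injured and 289 and 211 CPM in the control library, again overlapping. Cldn18 was highest in AT1-like cells, then in AT2-like cells, in both libraries, with no overlap between them. Cldn18 lay at 0 counts in injured secretory-like cells and at 2 counts in control secretory-like cells.

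**Figure D2:**
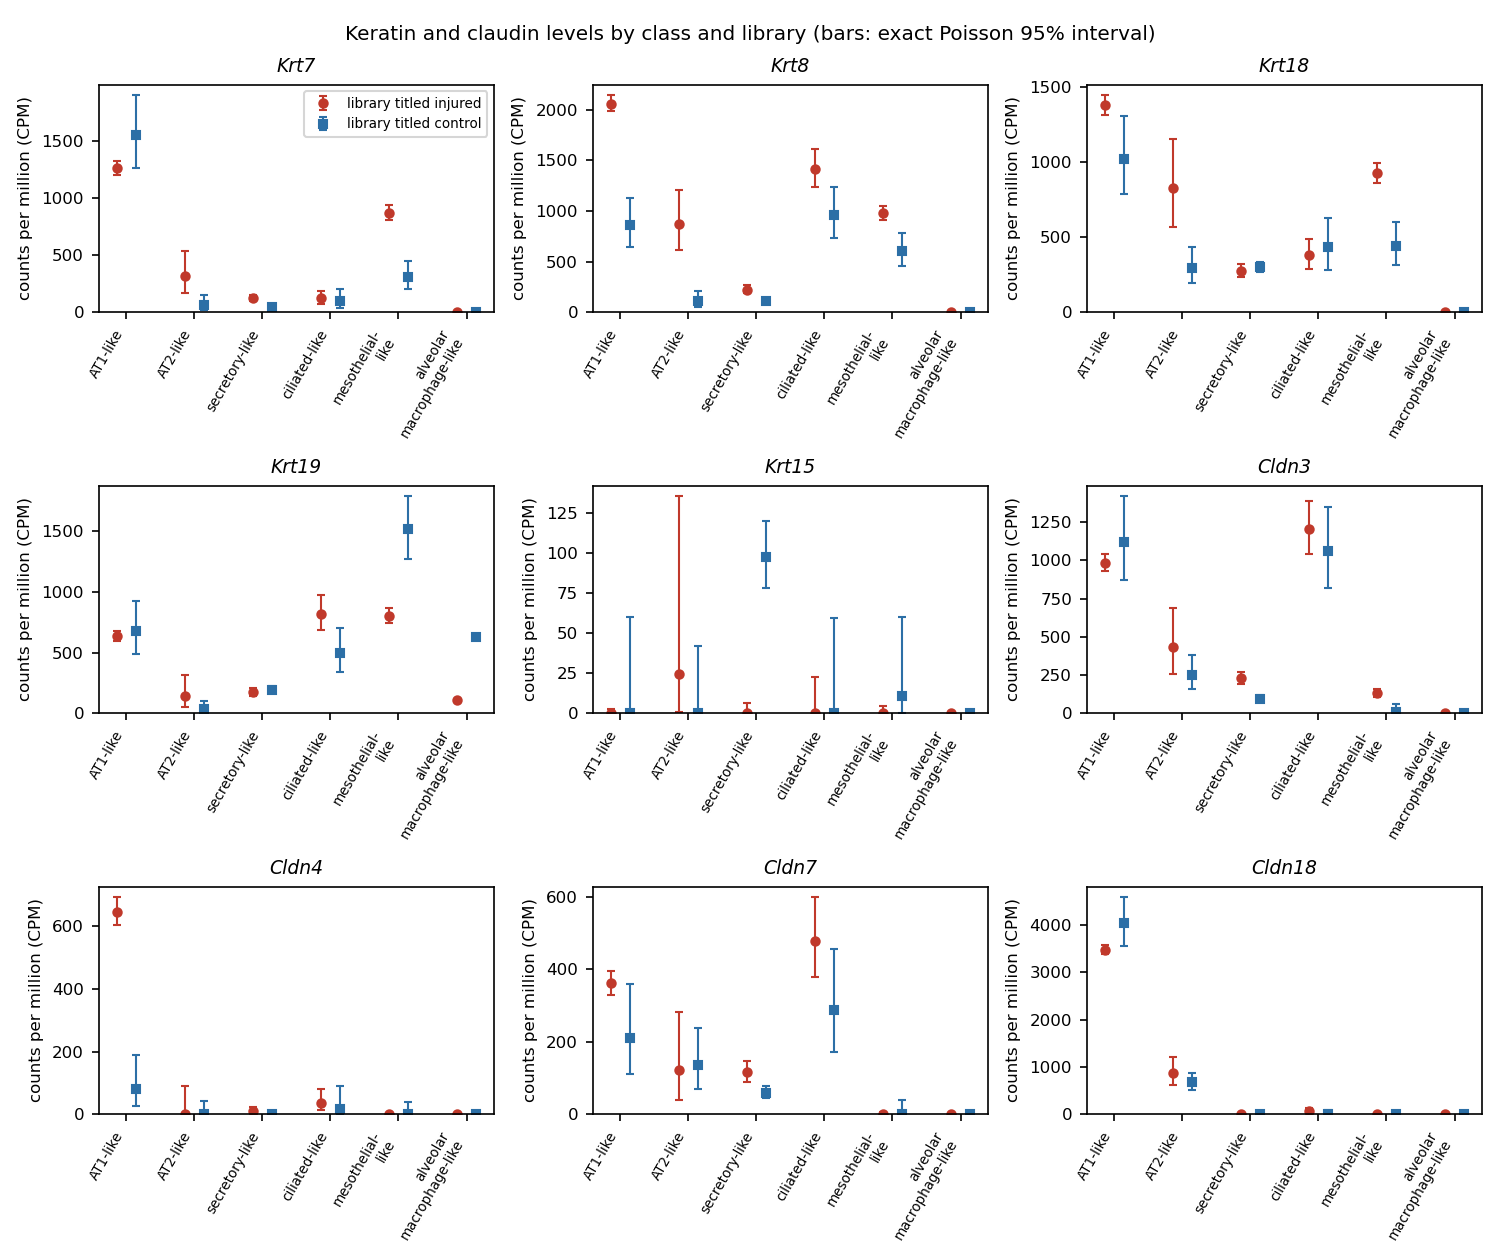
Level of each gene in CPM (y axis, linear, own scale per panel) in the 5 epithelial and mesothelial classes and in alveolar macrophage-like cells, with the injured library as circles on the left, the control library as squares on the right, and bars for the exact 95% Poisson interval. Krt8 and Cldn4 stand apart in AT1-like cells (2062 and 647 CPM injured, 860 and 81.1 CPM control), and Krt19 in alveolar macrophage-like cells (110 CPM injured, 630 CPM control).

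In AT1-like cells, Krt8, Cldn4 and Cldn7 were higher in the injured library and none of the 8 genes with enough counts was lower. Of all genes tested in this class, 39.6% were called higher and 23.3% lower (62.9% either way), so 3 of 8 is near the background. Krt8 had 2627 counts in 82 injured cells and 53 counts in 20 control cells, or 2062 and 860 CPM (2.40-fold, 1.83 to 3.21). Its partner Krt18 stood at 1378 CPM in injured and 1022 CPM in control cells, a ratio of 1.35 (1.05 to 1.76), short of the 1.5-fold limit. Krt7 (1264 CPM injured, 1557 CPM control) and Krt19 (636 CPM injured, 681 CPM control) were not called. Krt15 had no count in either library. The intervals of Krt8 did not overlap between libraries, while those of Krt7 and Krt19 did.

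At equal depth, Krt8 was found in a larger share of injured AT1-like cells, with intervals that overlapped. After thinning to 1000 UMIs, a Krt8 count was found in 54 of 65 injured cells (83.1%, exact interval 71.7 to 91.2) and in 5 of 10 control cells (50%, 18.7 to 81.3). Unthinned, 75 of 82 injured cells (91.5%) and 12 of 20 control cells (60%) had a count. In B cell-like cells, which should lack Krt8 and had median depths of 3375 UMIs in the injured and 4485 UMIs in the control library, the thinned share was 1.75% and 0%. Thinned shares for Krt7 were 69.2% of injured and 90% of control AT1-like cells, and Krt18 in 63.1% and 40%. Krt8 and Krt18 occurred together in 35 of 65 injured and 1 of 10 control cells, and Krt8 without Krt18 in 19 injured and 4 control cells. A median of 4 of the 9 genes was found per thinned AT1-like cell in both libraries.

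Krt8 counts per Krt18 count, the balance of the 2 chains of the pair, were higher in the injured library in 4 of 5 classes with all cells, but no class kept separate intervals in every setting tried. In AT1-like cells the ratio lay between 1.41 and 1.59 in the injured library, from 2627 Krt8 and 1756 Krt18 counts, and was 0.841 (0.573 to 1.23) in the control library. Without the deepest cell of each library the control ratio was 1.22 (0.713 to 2.11), an interval that holds the injured one. In secretory-like cells it was 0.809 (0.635 to 1.03) in the injured library and 0.378 (0.299 to 0.476) in the control library. Without the cell with most Krt8 counts in each library, it was 0.543 (0.378 to 0.771) in injured and 0.366 (0.287 to 0.464) in control secretory-like cells, and the intervals overlapped. The ratio was 1.06 in injured and 0.385 in control AT2-like cells and 3.74 in injured and 2.22 in control ciliated-like cells, with overlapping intervals. In mesothelial-like cells it was 1.06 in injured and 1.37 in control cells, and 0.924 in injured and 0.65 in control cells without the deepest cells. Such a ratio within a class does not depend on the class total, and it does not show which of the pair differs.

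Among the claudins of AT1-like cells, Cldn4 differed most. It had 824 counts in injured and 5 counts in control cells, or 647 and 81.1 CPM (7.97-fold, 3.40 to 24.6), and all 5 control counts came from the deepest control cell. Without the deepest cell of each library Cldn4 had 809 counts in injured cells and none in control cells. That is 8.05-fold higher if the control class is set at 3 counts, and the exact lower limit of the ratio was 6.53. Cldn7, at 362 CPM in injured and 211 CPM in control cells, was past the limit by size, with an interval that reached 1 (0.993 to 3.25). Cldn18 stood at 3472 CPM in injured and 4039 CPM in control cells and Cldn3 at 983 CPM in injured and 1119 CPM in control cells, and neither was called. Thinned shares were 36.9% and 0% for Cldn4 (0 of 10 control cells, exact interval up to 30.8%), 53.8% and 20% for Cldn3, and 90.8% and 80% for Cldn18, in injured and control cells in that order.

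The deepest control cell decided several of these values. That cell held 59 of the 69 Cldn3 counts and 36 of the 63 Krt18 counts of the control class. Without the deepest cell of each library, Cldn3 stood at 927 CPM in injured and 278 CPM in control cells (3.33-fold, 1.80 to 6.97) and Krt18 at 1385 CPM in injured and 752 CPM in control cells (1.84-fold, 1.26 to 2.80), both past the limit. Krt7 stood at 1269 CPM in injured and 2199 CPM in control cells (a ratio of 0.577, 0.460 to 0.733) and would be called lower. Krt8 kept its call at 2.26-fold. The Cldn18 ratio was 0.735 (0.631 to 0.862), which is not past the limit.

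**Figure D3:**
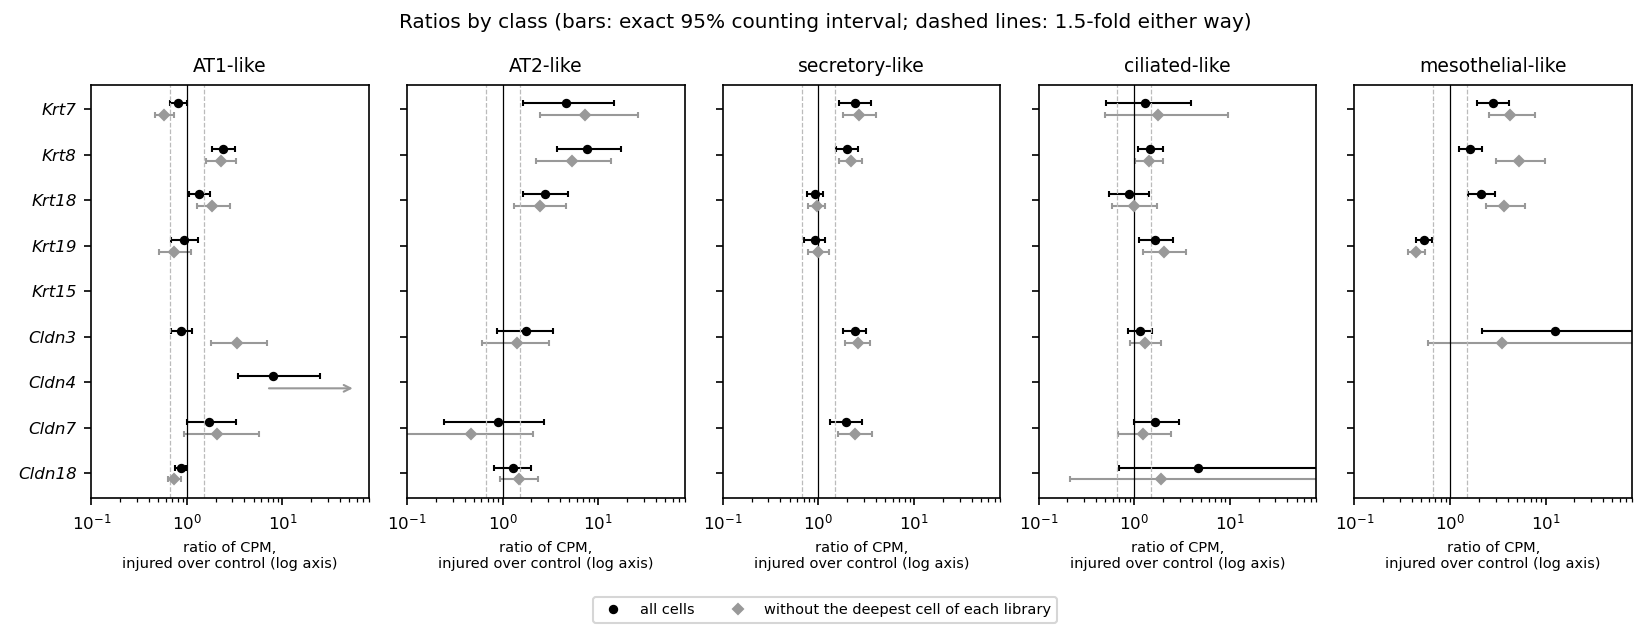
Ratio of CPM in the injured over the control library (log axis) for each gene in 5 classes, with all cells as black circles and without the deepest cell of each library as grey diamonds, bars for exact 95% counting intervals (cut at the panel edge) and dashed lines at 1.5-fold either way. The grey arrow marks Cldn4 in AT1-like cells, whose control count is 0 there, and Cldn3 in AT1-like cells moves to 3.33 once those cells are left out. Genes under 10 counts and Krt15 are not drawn.

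Cldn3 and Cldn4 are neighbours on opposite strands. They are shown because both had no count in the control cells of AT1-like sub-cluster 3, described next, and counts in most injured AT1-like cells. Those control cells were shallow (median 955 UMIs). In the injured cells of sub-cluster 2 (median 1143.5 UMIs), 4 of 22 had a Cldn3 count and 4 a Cldn4 count. Control cells of sub-clusters 0 and 2 had 59 and 10 Cldn3 counts and 5 and 0 Cldn4 counts. The part of depth in this contrast was not tested. The 250 bases before each start, from RefSeq (GRCm38.p6) and outside the annotated transcripts, are given 5′ to 3′ on the gene's strand. Capitals mark matches on either strand to 3 motifs that do not overlap here: the AP-1 motif TGANTCA, the TATA box TATAAA and the GC box GGGCGG.
Cldn4 (chr5:134946935-134947184, minus strand): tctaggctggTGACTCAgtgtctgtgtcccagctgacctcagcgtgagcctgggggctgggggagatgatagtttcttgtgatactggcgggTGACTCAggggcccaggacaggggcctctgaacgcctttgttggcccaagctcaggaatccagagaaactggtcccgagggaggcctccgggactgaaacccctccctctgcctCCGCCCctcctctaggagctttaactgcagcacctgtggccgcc
Cldn3 (chr5:134985964-134986213, plus strand): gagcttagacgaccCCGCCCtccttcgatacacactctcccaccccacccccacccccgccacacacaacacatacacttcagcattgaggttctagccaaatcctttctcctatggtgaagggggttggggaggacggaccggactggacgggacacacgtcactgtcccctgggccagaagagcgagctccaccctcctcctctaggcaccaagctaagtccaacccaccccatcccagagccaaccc
Cldn4 held 2 AP-1 matches, which start 240 and 158 bases before the gene start, and 1 GC box. Cldn3 held 1 GC box and no AP-1 match. Of 32851 promoters of the same length in the table, 6.75% held at least 1 AP-1 match, 0.338% held at least 2, 32.7% held a GC box and 12.4% a TATA box. Promoters of 7 of the 9 genes were in the table. Among them Krt7 held 4 GC boxes, 1 of 2 Cldn7 promoters held 1, and Krt8, Krt18 and Cldn18 held none of the 3 motifs. A match is a string of letters and says nothing about binding.

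AT1-like cells were split again, still without keratins and claudins, into 4 sub-clusters, of which 3 were mostly injured cells and 1 was mostly control cells. Sub-cluster 3 held 17 of the 20 control cells and had the highest AT1 markers, with Ager (the receptor RAGE, an AT1 marker) at 17809 CPM and Hopx (an AT1 transcriptional regulator) at 13993 CPM. In these control cells Cldn18 stood at 6061 CPM and Krt8 at 935 CPM, while Cldn3 and Cldn4 had no count (exact upper limit 138 CPM each). The secretory gene Scgb1a1 stood at 5238 CPM in the same cells. Sub-cluster 0 held 29 injured cells, with Ager at 7099 CPM and Sftpc at 1167 CPM. In them Krt8 stood at 1633 CPM, Cldn4 at 367 CPM, Cldn3 at 1062 CPM and Cldn18 at 4143 CPM. It also held 1 control cell, the deepest one of 25723 UMIs. In that cell Krt8 stood at 778 CPM, Cldn4 at 194 CPM, Cldn3 at 2294 CPM and Cldn18 at 3032 CPM. Sub-cluster 1, with 28 injured cells, had Sftpc at 8189 CPM and Ager at 2113 CPM, passed 8 AT2 markers and no AT1 marker against the other sub-clusters, and had Krt8 at 2367 CPM, Cldn4 at 770 CPM and Cldn18 at 3078 CPM. Clu, a secreted chaperone listed here as a transitional gene, stood at 3642 CPM in sub-cluster 0, at 9228 CPM in sub-cluster 1 and at 112 CPM in the control cells of sub-cluster 3.

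Across the injured cells of sub-clusters 0 and 1 and the control cells of sub-cluster 3, Krt8 and Cldn4 were lowest in those control cells and highest in sub-cluster 1. Cldn18 had the opposite order, and neighbouring intervals did not overlap for any of the 3 genes. Sub-cluster 2 held 22 injured cells with a median of 1143.5 UMIs, and a single cell of 49430 UMIs made up most of its sum. That cell had 233 of the 318 Krt18 counts, 150 of the 161 Cldn4 counts and also 257 counts of the mesothelial marker Msln. Without it, the injured cells of sub-cluster 2 stood at 2825 CPM for Krt8, 1792 CPM for Krt18, 232 CPM for Cldn4 and 148 CPM for Cldn3. Sub-cluster 2 thus lay outside the order above. Its Krt8 level was not under the 2367 CPM of sub-cluster 1, while its Cldn4 level was under the 770 CPM there. The median depth was 17021 UMIs in sub-cluster 0 and 18989.5 UMIs in sub-cluster 1, against 955 UMIs in the control cells of sub-cluster 3, and the part of depth in this order was not tested.

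**Figure D4:**
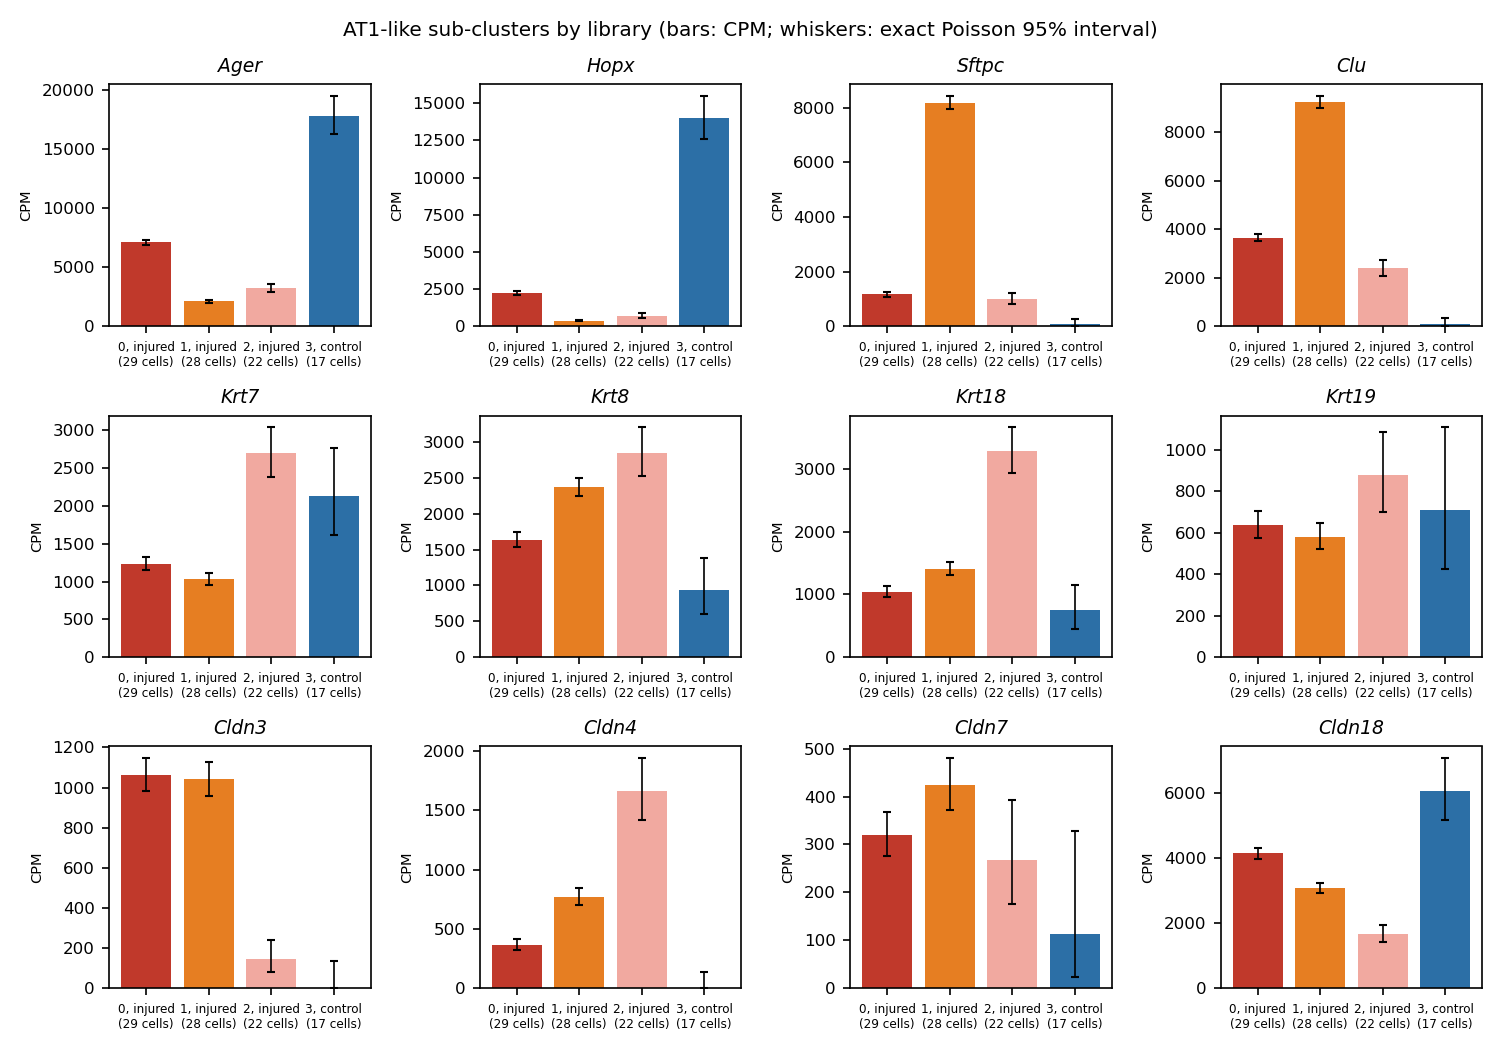
CPM (y axis, linear from 0, own scale per panel) of 4 alveolar marker genes and 8 keratins and claudins in the AT1-like sub-clusters, with sub-clusters 0 to 2 of the injured library left of the control cells of sub-cluster 3, and exact 95% Poisson intervals. Ager and Cldn18 are highest in the control cells of sub-cluster 3 (17809 and 6061 CPM), where Cldn3 and Cldn4 have no count. The few control cells of the other sub-clusters are not drawn. The bars of sub-cluster 2 for Krt18 and Cldn4 include the single cell of 49430 UMIs.

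In AT2-like cells, all 3 keratins with enough counts and Cldn3 were higher in the injured library, and none of the 6 genes tested was lower, against 34.9% of genes called higher and 20.5% called lower (55.4% either way). Krt8 had 36 counts in 18 injured cells and 10 counts in 63 control cells, or 873 and 114 CPM (7.63-fold, 3.71 to 17.2). Krt7 stood at 315 CPM in injured and 68.7 CPM in control cells (4.59-fold, 1.63 to 14.7) and Krt18 at 825 CPM in injured and 297 CPM in control cells (2.77-fold, 1.62 to 4.81). A single injured cell held 19 of the 36 Krt8 counts, and without the cell with most Krt8 counts in each library the ratio was 6.14 (2.51 to 16.4). Cldn3 was 1.73-fold higher with an interval that spanned 1 (0.877 to 3.39), and without the deepest cell of each library its ratio of 1.40 was under the limit.

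Cldn18 in AT2-like cells stood at 873 CPM in injured and 687 CPM in control cells, and Cldn7 at 121 CPM in injured and 137 CPM in control cells. Neither was called. Cldn4 had no count in 18 injured or 63 control AT2-like cells, while Krt19 had 6 counts in injured and 3 in control cells. Median depth was alike in this class, at 1203 UMIs in injured and 1225 UMIs in control cells, but the deepest cells differed. A single injured cell of 11282 UMIs made up 27.4% of the injured sum. The deepest control cell, of 3475 UMIs, made up 3.98% of the control sum. At 1000 UMIs Krt8 was found in 5 of 10 injured (50%, 18.7 to 81.3) and 2 of 42 control cells (4.76%, 0.582 to 16.2), and the median number of the 9 genes found per cell was 2.5 in injured and 1 in control cells. Summed AT1 markers stood at 1844 CPM in injured and 1064 CPM in control AT2-like cells, and summed AT2 markers at 52743 CPM in injured and 68504 CPM in control cells. Summed secretory markers stood at 1092 CPM in injured and 9005 CPM in control AT2-like cells, and their part in the differences was not tested.

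The secretory-like class was named from 12 markers, among them Scgb1a1, Scgb3a2 and Cyp2f2. In it Krt7, Krt8, Cldn3 and Cldn7 were higher and Krt15 was lower in the injured library, out of 7 genes tested. Of all genes there, 48.9% were called higher and 10.8% lower (59.7% either way). Cldn3 stood at 230 CPM in injured and 96.4 CPM in control cells (2.39-fold, 1.81 to 3.16), and Krt7 at 124 CPM in injured and 51.5 CPM in control cells (2.41-fold, 1.64 to 3.56). Krt18 (278 CPM injured, 301 CPM control) and Krt19 (175 CPM injured, 192 CPM control) were not called. Scgb1a1 alone took 44.6% of all counts in injured and 58.2% in control secretory-like cells. With Scgb1a1 left out of the totals the ratios were 1.81 for Krt7, 1.80 for Cldn3, 1.49 for Krt8 and 1.46 for Cldn7, so that only Krt7 and Cldn3 of these 4 genes stayed past the limit. In the same setting the ratio was 0.696 (0.568 to 0.849) for Krt18 and 0.689 (0.533 to 0.887) for Krt19. Both intervals lay under 1, though neither ratio was past the limit. With each cell weighted the same, Krt7, Krt8 and Cldn3 were no longer called. The class was mixed: a sub-cluster of 21 injured and 10 control cells was led by Chil4, Clca1, Reg3g, Fcgbp, Muc5b and Agr2. Its injured cells held 113 of the 127 Krt8, 74 of the 99 Krt19, 73 of the 130 Cldn3 and 44 of the 66 Cldn7 counts. Its control cells held 6 of 104, 54 of 175, 0 of 88 and 1 of 55, in the same order.

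Krt8 in this class rested on a single cell. Of its 127 injured counts, 76 lay in 1 cell of 70820 UMIs, which also held the most Krt18, Krt19, Cldn3 and Cldn7 counts of the injured class and 596 counts of Clu. Without the cell with most Krt8 counts in each library, Krt8 stood at 103 CPM in injured and 110 CPM in control cells (a ratio of 0.938, 0.655 to 1.33). On thinned cells the share with a Krt8 count was 9.68% in injured and 13.4% in control secretory-like cells, which is the opposite order to the CPM, so no order was read from it.

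Krt15 was a matter of a single control cell. All 89 Krt15 counts of the class lay in 1 of 116 control secretory-like cells, and none was found in 79 injured ones. That is 18.4-fold lower if the injured class is set at 3 counts, and the exact upper limit of the injured over control ratio was 0.0684. That cell had 12336 UMIs, 2396 counts of Scgb1a1, 38 of Krt19 and 20 of Krt18, and no count of the basal cell genes Krt5, Krt14, Krt17 and Trp63. The other Krt15 counts of the study were 1 in an injured AT2-like cell and 1 in a control mesothelial-like cell. No basal cell-like cluster was found in either library.

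In ciliated-like cells, Krt19, Cldn7 and Cldn18 were called higher and none of 7 genes was lower, beside 29% of genes called higher and 24.7% called lower (53.7% either way). Krt19 stood at 822 CPM in 18 injured and 497 CPM in 15 control cells (1.65-fold, 1.11 to 2.53), and lost this call when each cell was weighted the same or with at most 10% mitochondrial counts. Krt8, at 1419 CPM in injured and 962 CPM in control cells, had a ratio of 1.48 (1.11 to 1.99), just short of the limit. Cldn7 (479 CPM injured, 289 CPM control) had an interval that reached 1 (0.984 to 2.95), and without the deepest cell of each library its ratio of 1.24 was under the limit. Cldn18 rested on 12 counts in injured cells, of which 7 lay in 1 cell, and 1 count in control cells. Cldn3 (1201 CPM injured, 1058 CPM control) and Krt18 (380 CPM injured, 433 CPM control) were not called.

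In mesothelial-like cells, the lining cells of the lung surface, the 3 keratins Krt7, Krt8 and Krt18 were higher and Krt19 was lower in the injured library, with Cldn3 also called higher among 5 genes tested (32.1% of all genes higher, 24.7% lower and 56.8% either way). Krt7 stood at 871 CPM in 20 injured and 313 CPM in 8 control cells (2.78-fold, 1.92 to 4.18), and Krt18 at 926 CPM in injured and 443 CPM in control cells (2.09-fold, 1.53 to 2.94). Krt8 stood at 980 CPM in injured and 605 CPM in control cells (1.62-fold, 1.23 to 2.16). A single control cell held 43 of the 56 control counts of Krt8, and without the deepest cell of each library the ratio was 5.20 (3.02 to 9.82), with 4.28 for Krt7 and 3.66 for Krt18. Krt19 stood at 804 CPM in injured and 1513 CPM in control cells (1.88-fold lower, 1.56 to 2.26), and its counts came from 19 of 20 injured and 8 of 8 control cells. Without the cell with most Krt19 counts in each library it stood at 722 CPM in injured and 1146 CPM in control cells (a ratio of 0.629).

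Claudins of the mesothelial-like class were not those of the alveolar cells. Cldn4 had no count in either library, Cldn7 and Cldn18 had 1 count each in injured and none in control cells, and 72 of the 105 Cldn3 counts in injured cells lay in a single cell, against 1 Cldn3 count in control cells. Of the other claudins 3 had enough counts there, 1 higher and 2 lower. The lower ones were Cldn15, a pore-forming claudin, at 216 CPM in injured and 648 CPM in control cells (3.01-fold lower, 2.20 to 4.06), and Cldn10 at 115 CPM in injured and 281 CPM in control cells (2.45-fold lower, 1.52 to 3.82). The higher one, Cldn12, named after its values were seen, had 13 counts in injured cells and 1 count in control cells (1.53-fold, 0.231 to 65.2). Summed fibroblast markers stood at 8861 CPM in injured and 11249 CPM in control mesothelial-like cells, and all 11 mesothelial markers had counts in both.

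Outside epithelium, Krt19 was found in alveolar macrophage-like cells, and this is where most of the control library's Krt19 lay. It stood at 110 CPM in 504 injured and 630 CPM in 479 control macrophage-like cells (5.75-fold lower, 5.35 to 6.19), in a class where 14.4% of all genes were called higher and 21.9% lower (36.2% either way). Of 7 genes tested in the class, 5 were called higher and 2 lower, and the higher ones stood at 4.45 CPM or less. Krt7, Krt8 and Krt18 stayed between 0.437 and 4.45 CPM in both libraries. These values lay at or under the free RNA level of the same gene and library, except for Krt7 in injured cells. There Krt7 stood at 4.45 CPM (3.11 to 6.16), against 2.68 CPM in injured B cell-like and T cell-like cells. After thinning, 37 of 436 injured cells (8.49%, 6.05 to 11.5) and 187 of 405 control cells (46.2%, 41.2 to 51.2) had a Krt19 count, while 0% of injured B cell-like cells had one, against 0.639% of control ones. Unthinned shares were 45.8% in injured and 80.8% in control macrophage-like cells, with median depths of 14532.5 and 15863 UMIs. Without this class the Krt19 level of the whole library was 145 CPM in the injured library against 51.2 CPM in the control library, 2.83-fold higher (2.55 to 3.14) in place of 2.29-fold lower.

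The lower Krt19 level was seen in each macrophage-like cluster that held cells of both libraries. Cluster 4 held 3 injured and 320 control cells and cluster 5 held 299 injured cells and no control cell, so most of the class lay in different clusters in the 2 libraries. In cluster 13, led by the proliferation genes Pclaf, Birc5 and Mki67, Krt19 stood at 117 CPM in 83 injured and 401 CPM in 46 control cells. In the shallow cluster 8 it stood at 70.5 CPM in 119 injured and 566 CPM in 113 control cells. Cluster 4 had 141 CPM in injured and 660 CPM in control cells, where 310 of 320 cells had a count, and cluster 5 had 108 CPM in injured cells. Krt79, a type II keratin used here as a macrophage marker, was also lower at 121 CPM in injured and 584 CPM in control cells of the class (4.84-fold lower, 4.51 to 5.20), and so was the adhesion molecule Epcam at 14.8 CPM in injured and 109 CPM in control cells (7.34-fold lower).

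**Figure D5:**
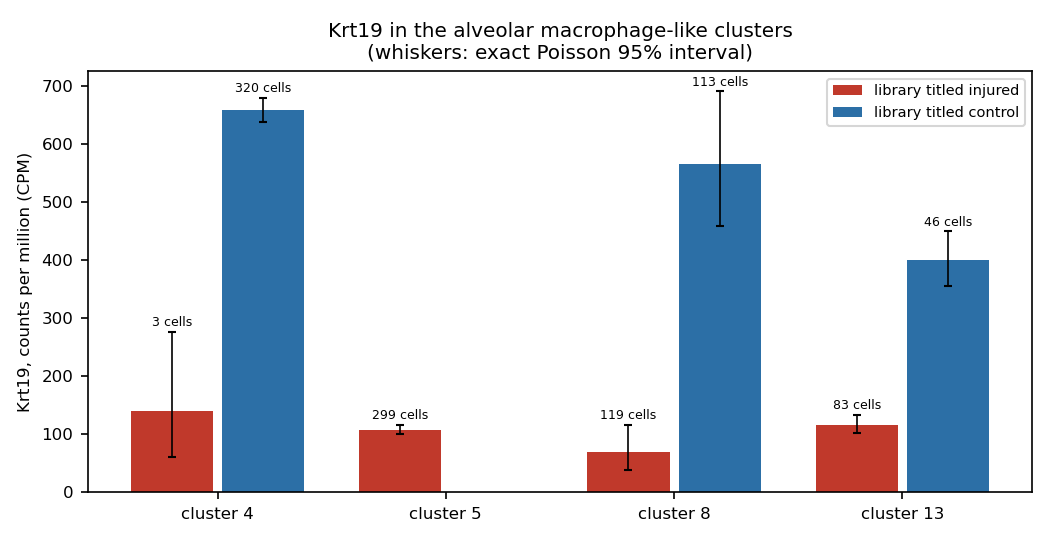
Krt19 level in CPM (y axis, linear from 0) in the 4 alveolar macrophage-like clusters, with the injured library left of the control library, exact 95% Poisson intervals and cell numbers above the bars. Injured cells lie between 70.5 and 141 CPM and control cells between 401 and 660 CPM, and cluster 5 holds no control cell.

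Cldn18 was also read in endothelial-like cells, at 19.1 CPM in 92 injured and 99.5 CPM in 395 control cells (5.20-fold lower, 2.31 to 14.5), where 21.4% of all genes were called higher and 22.3% lower (43.7% either way). The injured level rested on 6 counts. Of 5 genes tested there, Cldn18 was the 1 lower, and 4 keratins were called higher: Krt7 at 82.9 CPM in injured and 19.7 CPM in control cells, Krt8 at 51.0 CPM in injured and 5.63 CPM in control cells, Krt18 at 25.5 CPM in injured and 12.2 CPM in control cells, and Krt19 at 35.1 CPM in injured and 7.51 CPM in control cells. Single injured cells held 22 of the 26 Krt7, 12 of the 16 Krt8, 4 of the 8 Krt18 and 9 of the 11 Krt19 counts. In cluster 3, Cldn18 stood at 24.5 CPM in injured cells (4 counts) and 160 CPM in control cells. Ager stood there at 55.1 CPM in injured and 81.0 CPM in control cells, and Sftpc at 30.6 and 76.2 CPM. In cluster 12, Cldn18 stood at 13.3 CPM in injured cells (2 counts) and 60.4 CPM in control cells. Ager (86.6 CPM injured, 41.8 CPM control) and Sftpc (46.6 CPM injured, 12.4 CPM control) ran the other way in that cluster. Whether the Cldn18 and keratin counts come from endothelial cells or from alveolar RNA in the same droplets was not tested.

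The genes around the keratins and claudins in AT1-like cells were read from lists, beside a median log2 ratio of 0.14 over all genes tested (10 CPM added to both sides) and the background of 39.6% of genes called higher and 23.3% called lower. Of 17 tight junction genes 3 were higher and 5 lower in the injured library (median -0.09). Named by size, Patj stood at 95.8 CPM in injured and 32.4 CPM in control cells and Lsr, an angulin of tricellular junctions, at 163 CPM in injured and 81.1 CPM in control cells, while Mpp5, a polarity scaffold, had 121 counts in injured and 15 counts in control cells (2.56-fold lower by CPM) and Cldnd1 at 46.3 CPM in injured and 97.3 CPM in control cells. Of 9 desmosome genes 2 were higher and none lower (median 0.18), led by plakoglobin, Jup, at 304 CPM in injured and 114 CPM in control cells (2.68-fold, 1.29 to 6.70). Desmoplakin, Dsp, which anchors keratin filaments, stood at 119 CPM in injured and 81.1 CPM in control cells, and Ppl at 113 CPM in injured and 114 CPM in control cells and Pkp2 at 151 CPM in injured and 162 CPM in control cells.

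Of 11 adherens junction genes 4 were higher and 2 lower (median 0.28), near the background of 39.6% higher and 23.3% lower. Nectin1 and Nectin4 had 102 and 114 counts in injured cells and 1 count each in the far smaller control sum. By CPM these were 4.94-fold (0.866 to 197) and 5.52-fold (0.970 to 220). Nectin3 stood at 111 CPM in injured and 195 CPM in control cells and Vcl, vinculin, at 151 CPM in injured and 260 CPM in control cells. The ratio intervals of these adherens junction genes all held 1. Of 16 epithelial regulators 9 were higher and 2 lower (median 0.84). The transcription factor Nkx2-1, which defines lung epithelium, stood at 595 CPM in injured and 827 CPM in control cells and Klf5 at 181 CPM in injured and 276 CPM in control cells. Elf3 and the splicing factor Esrp2 had 83 and 87 counts in injured and 1 count each in control cells. By CPM they were 4.02-fold (0.701 to 161) and 4.21-fold (0.736 to 168), with intervals that held 1.

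Of 18 transitional epithelial genes tested 11 were higher and 1 was lower (median 1.26), beside 39.6% of all genes higher and 23.3% lower. Clu stood at 6057 CPM in injured and 243 CPM in control AT1-like cells (24.9-fold, 15.1 to 44.5), and Sprr1a, a cornified envelope protein, had 502 counts in injured and none in control cells. Tuba1a, an alpha-tubulin, stood at 155 CPM in injured and 519 CPM in control cells (3.36-fold lower) and Anxa3 at 928 CPM in injured and 1346 CPM in control cells. Of 11 other filament and actin genes 7 were higher and 2 lower (median 0.84). Flna, filamin A, stood at 383 CPM in injured and 114 CPM in control cells (3.37-fold). Dst had 69 counts in injured and none in control cells, with a lower limit of the ratio of 0.881. The myosin light chain Myl12a stood at 1176 CPM in injured and 2466 CPM in control cells (2.10-fold lower) and Plec, plectin, at 242 CPM in injured and 227 CPM in control cells. Of the other keratins 2 were tested, 1 higher and 1 lower, and Krt80 stood at 41.6 CPM in injured and 81.1 CPM in control cells. Of the other claudins 1 was tested and was not called.

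Across the 32 sums by class and library with at least 5 cells, each gene had its most similar genes by Pearson r of log2(CPM + 10), given as a description because the sums share libraries and depth. Krt8 was most like Krt18 (r = 0.97), then 2310030G06Rik and Wwc1, and Krt7 was most like Arhgap44 (0.95), then Krt18 and Krt8. Krt18 was most like Krt8 and Krt7. Krt19 stood apart, with Perp, a desmosome protein, at 0.88 and C77080 and Krt8 next. Cldn3 was most like Wwc1 (0.95), Cldn7 and Prr15l, and Cldn7 most like Myo5c (0.97), Ank3 and Cldn3. Cldn18 was most like Mtcl1 (0.92), Ager and Matn4, and Cldn4 most like Itgb6 (0.90), an integrin of injured epithelium, with Slc1a1 and Mab21l4 next. Krt15 had too few counts for this.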

How the data were processed

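The authors deposited raw UMI counts, 1 whole number for each gene in each barcode of a 10x single-cell 3′ library, and per the file headers Cell Ranger 4.0.0 wrote them. The submitters' processing notes name DESeq2, featureCounts and STAR too, and the builds mm10 and GRCm38, whose role for these libraries is not given in the sources used here. The injured library summed to 22314603 counts, against 17207816 for the control library.

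Barcodes with at least 500 UMIs, at least 200 genes and at most 15% mitochondrial counts were kept, which removed 356 injured and 332 control barcodes, and 44 putative doublets were removed from each library. This left 4600 of 5376 barcodes, with 1 barcode sequence shared by the libraries. The 2000 most variable genes without keratins and claudins, 30 principal components and a graph of 20 neighbours gave 24 Leiden clusters (resolution 1), named from marker lists that hold none of the 9 genes. Counts were summed per class and library. Genes of other lists are the 2 with the largest and the 2 with the smallest log2 ratio (10 CPM added) among those with at least 50 counts in the class, printed for AT1-like cells; other keratins and claudins needed 50 counts. Clu, Msln, Scgb1a1, Epcam, Ager, Hopx and Sftpc as markers, the endothelial Cldn18 value, and the sub-clusters were chosen after values were seen. The members and lists were chosen with earlier results of these data known.

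Intervals are exact (Poisson, conditional binomial, Clopper-Pearson) at 95% and cover counting error only. The ratio rule was tested on simulated Poisson counts of a class sum, without spread between cells. That test therefore does not cover values decided by single cells. Gene positions are from GENCODE M21 (GRCm38). Clustering used leidenalg 0.10.2 on python-igraph 0.11.9, and intervals used scipy 1.17.1, under Python 3.11.15. Alternatives tried were size factors, equal cell weights, other pseudocounts, count minimums, quality limits, resolutions, gene sets and thinning depths, each library clustered alone, and free RNA subtracted.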

Additional observations from a re-analysis of the deposited data

Results flagged for a closer look

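Krt19 differed in opposite directions between cell classes under the same contrast, and the difference between classes was not tested. Its log2 ratio of injured over control (10 CPM added) was 0.71 in ciliated-like and 1.36 in endothelial-like cells, and -0.90 in mesothelial-like and -2.42 in alveolar macrophage-like cells. The endothelial value rests on 11 counts in injured and 8 in control cells.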

How the results depend on the processing

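In all, 814 single-gene ratios were recomputed under 20 alternatives (6 chosen after seeing the data). Of these, 740 moved by less than their counting interval, 72 moved by more and 2 were counted as reversed. That number does not hold every change of sign, because signs also changed for genes that were not called. In AT1-like cells the log2 ratio ran from -0.36 to 1.92 for Cldn3 and from -0.79 to 0.84 for Krt7. It ran from -0.44 to 1.02 for Krt19 and from -0.75 to 0.71 for Cldn18 there. Krt19 in the whole library had a log2 ratio of 1.34 without alveolar macrophage-like cells, and Krt8 in secretory-like cells one of -0.08 without the cell with most Krt8 counts in each library. Krt8 and Cldn4 in AT1-like cells, Krt8 in AT2-like cells and Krt19 in mesothelial-like and alveolar macrophage-like cells kept direction and call in every alternative run on them, with log2 ranges of 1.10 to 2.23, 2.41 to 6.09, 2.30 to 3.48, -1.17 to -0.66 and -2.53 to -2.09.

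The number of genes past 1.5-fold in AT1-like cells, 3, became 6 with each cell weighted the same or without the deepest cell of each library. It became 5 without the cell with most counts of the gene, and 8 at resolution 0.5. At that resolution the class held 100 injured and 83 control cells and no separate AT2-like class was compared, so it is another set of cells. In AT2-like cells 4 became 1 with a minimum of 50 counts. In secretory-like cells 5 became 3 with equal cell weights, without the cell with most counts of the gene or with Scgb1a1 left out of the totals. It became 8 with each library clustered alone, where the class held 140 injured and 129 control cells in place of 79 and 116. That setting too compares another set of cells. In ciliated-like cells 3 became 5 with size factors, and in mesothelial-like cells 5 became 8 with no minimum count, a setting that tests more genes. The cause of the other changes was not tested.

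No paired analysis was possible because each group had 1 library, and for the same reason no library was left out. Of 216 shares of cells, 63 left the interval of the share at 1000 UMIs when cells were thinned to 500 UMIs or not thinned. Depth limits the control AT1-like class (61645 counts in 20 cells) and the injured AT2-like class (41219 counts in 18 cells), and spread between animals is unknown, so every direction is that of 2 libraries.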
